A study of Mus musculus with 3 samples.

Results

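The enzymes that make, use and recycle glutathione, together with the peroxiredoxins, were followed across 3 single-cell kidney libraries of male mice. Members were all genes whose symbol belonged to the glutathione transferases (Gsta to Gstz and the membrane-bound Mgst), the glutathione peroxidases (Gpx), the peroxiredoxins (Prdx), the synthesis enzymes Gclc, Gclm and Gss, the reductase Gsr or the gamma-glutamyl transferases (Ggt). This rule, which used no expression value, gave 51 of the 33696 genes in the files: 23 soluble and 3 membrane-bound transferases, 8 glutathione peroxidases, 7 peroxiredoxins, 3 synthesis enzymes, 1 reductase, 4 gamma-glutamyl transferases, and Ggta1 and Gstcd, which match by name only. Ggta1 encodes a galactosyltransferase and Gstcd a protein with a transferase-like domain.

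Old mice of 20 months treated with D+Q gave the D+Q library, old mice of the same age given vehicle gave the old vehicle library, and mice of 3 to 4 months, labelled control, gave the young library. By its usual meaning D+Q is dasatinib, which blocks tyrosine kinases, with quercetin, a plant flavonoid, a senolytic pair meant to clear senescent cells. The sources used here give neither the strain, the dose nor the number of animals behind each library. Each group has 1 library, so no difference below has a replicate check, no test across samples was possible, and "higher" and "lower" describe these libraries.

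Glutathione is a tripeptide that donates electrons to peroxidases and is joined to reactive compounds by the transferases. Cells build it in a first step run by the catalytic subunit Gclc with its modifier Gclm and a second step run by Gss, and Gsr reduces its oxidised form. Peroxiredoxins remove peroxides with thioredoxin as the usual electron donor. In the kidney, the proximal tubule is known for a brush border rich in Ggt1, which splits filtered glutathione, and for making the secreted peroxidase Gpx3 that circulates in plasma.

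Many genes of these families are known to carry an antioxidant response element, the site bound by the factor NRF2, in or near their promoter. Windows from 250 bases before to 50 bases after the start were taken from RefSeq (GRCm38.p6), where 43 of the 51 members had at least 1. Prdx6, Prdx6b, Gsr, Gclc, Gsta4, Gsta5, Ggt5 and Gstt2 had none. The element's core, TGACNNNGC, was searched on both strands, and its first letters are shared with the AP-1 element TGACTCA. It was found in 7 of the 43 members (16.3%), namely Gsta3, Gstm5, Gstm7, Gclm, Prdx1, Mgst1 and Ggt1, beside 3781 of 27025 genes (14%) with a window of this length. The windows of 5 members are shown because their values carry the comparisons below: Gsta3 and Gstt1 were higher in the old vehicle than in the young library, Gstm1 and Mgst1 were lower over all barcodes with urothelial barcodes included, and Gclm stands for the synthesis step. Capitals mark the core, which starts at base 130 of the window in Gsta3 and, on the opposite strand, at base 117 in Gclm and base 195 in Mgst1.
Gsta3 (chr1:21240335-21240634, plus strand): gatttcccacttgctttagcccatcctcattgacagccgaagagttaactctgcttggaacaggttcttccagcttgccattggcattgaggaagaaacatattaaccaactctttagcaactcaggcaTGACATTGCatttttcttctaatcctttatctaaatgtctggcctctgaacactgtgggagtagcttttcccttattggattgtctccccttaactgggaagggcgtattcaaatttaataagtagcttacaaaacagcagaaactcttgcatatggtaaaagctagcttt
Gclm (chr3:122245307-122245606, plus strand): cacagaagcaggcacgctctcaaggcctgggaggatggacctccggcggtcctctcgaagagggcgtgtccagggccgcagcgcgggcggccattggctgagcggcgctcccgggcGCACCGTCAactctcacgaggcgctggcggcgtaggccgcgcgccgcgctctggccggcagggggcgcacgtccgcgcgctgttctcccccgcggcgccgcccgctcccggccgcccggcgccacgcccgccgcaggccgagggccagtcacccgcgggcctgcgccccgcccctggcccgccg
Mgst1 (chr6:138140277-138140576, plus strand): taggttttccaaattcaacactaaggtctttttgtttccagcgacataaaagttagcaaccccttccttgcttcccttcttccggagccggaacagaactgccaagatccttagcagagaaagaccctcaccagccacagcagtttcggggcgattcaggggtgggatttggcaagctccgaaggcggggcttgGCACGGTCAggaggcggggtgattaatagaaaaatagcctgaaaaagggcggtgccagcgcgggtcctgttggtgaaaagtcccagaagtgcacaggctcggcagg
Gstt1 (chr10:75797682-75797981, minus strand): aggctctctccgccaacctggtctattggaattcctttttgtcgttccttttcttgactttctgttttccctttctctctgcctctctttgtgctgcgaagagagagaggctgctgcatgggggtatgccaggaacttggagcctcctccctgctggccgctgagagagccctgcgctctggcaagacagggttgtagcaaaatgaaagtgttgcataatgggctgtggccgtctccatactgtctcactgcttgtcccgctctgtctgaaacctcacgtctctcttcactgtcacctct
Gstm1 (chr3:108017924-108018223, minus strand): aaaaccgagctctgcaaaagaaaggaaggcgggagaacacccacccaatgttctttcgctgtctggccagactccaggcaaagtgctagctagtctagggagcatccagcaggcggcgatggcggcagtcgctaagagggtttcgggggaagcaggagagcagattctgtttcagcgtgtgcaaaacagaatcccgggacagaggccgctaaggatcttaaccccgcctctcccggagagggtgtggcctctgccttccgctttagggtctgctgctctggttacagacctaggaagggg

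The core was thus found in the windows of Gsta3, Gclm and Mgst1 and not in those of Gstt1 and Gstm1. Whether it bears on the levels of these genes was not tested. A match is a description of letters, and a window without one says only that these letters are not in it.

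The D+Q library held 8037 barcodes and 21058975 UMI counts (unique molecule counts), the old vehicle library 6027 barcodes and 13944270 counts, and the young library 8615 barcodes and 24346733 counts. A limit of 50% mitochondrial counts left 7888, 5945 and 8230 barcodes, in that order. Between 28 and 38 barcodes were shared by any 2 libraries. Cell classes were gated on marker genes. The proximal tubule gate needed 3 of its 10 markers and fewer than 3 of every other class, and it held 5109 D+Q, 4241 old vehicle and 4998 young barcodes with all 10 markers detected. Urothelial markers, which belong to the lining of the renal pelvis, differed between the libraries. All 7 were detected in each, and over all barcodes they summed to 63.0 CPM (the UMI counts scaled to a library or gate total of 1e6) in D+Q, 21.7 CPM in old vehicle and 230 CPM in young. In proximal tubule-gated barcodes they summed to 25.6, 5.49 and 88.9 CPM. Haemoglobin and other erythroid genes there summed to 117, 332 and 107 CPM, and leukocyte markers to 60.6, 99.6 and 57.2 CPM.

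Together the 51 members took up 0.934% of the counts of kept barcodes in the D+Q library, 0.915% in the old vehicle library and 1.15% in the young library. Levels below are CPM from summed counts, with exact 95% Poisson intervals that cover counting error only. The libraries count 3′ ends and are not scaled by gene length, so an order of levels between genes is an order of UMI shares. A gene was called measured where the libraries together held 30 or more counts and the mean reached 5 CPM, which was so for 30 members in proximal tubule-gated barcodes and for 32 over all kept barcodes. How the authors' counting divided reads among close copies is unknown here, and the values of such genes carry that uncertainty. Examples are the Gstm genes on chromosome 3, the Gstt genes on chromosome 10, the Gstp genes on chromosome 19 and the Gsta genes.

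Gpx3, the secreted plasma peroxidase, dominated the families in the proximal tubule gate. It stood at 4933 CPM (4893 to 4972) in D+Q, 4270 CPM (4226 to 4314) in old vehicle and 5965 CPM (5922 to 6008) in young barcodes. That was 50.9%, 45.6% and 49.8% of all member counts, in that order, so the sum over the members mostly follows this gene. Gstt2, a theta class transferase, came next at 918 CPM (901 to 935) in D+Q, 1101 CPM (1079 to 1124) in old vehicle and 1844 CPM (1820 to 1868) in young barcodes. The young library was the highest of the 3 for both genes. Gpx1, the selenium peroxidase of cytosol and mitochondria, followed at 558, 598 and 709 CPM. Prdx1, a cytosolic peroxiredoxin, had 462, 514 and 501 CPM, and Prdx5, found in mitochondria and peroxisomes, had 408, 466 and 507 CPM. At the other end, Gstm2 had 6.67, 3.97 and 6.03 CPM. By role, the soluble transferases summed to 1522 CPM in D+Q, 1719 CPM in old vehicle and 2496 CPM in young, the peroxiredoxins to 1044, 1147 and 1195 CPM, and the 3 synthesis enzymes to 713, 798 and 695 CPM.

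**Figure D1:**
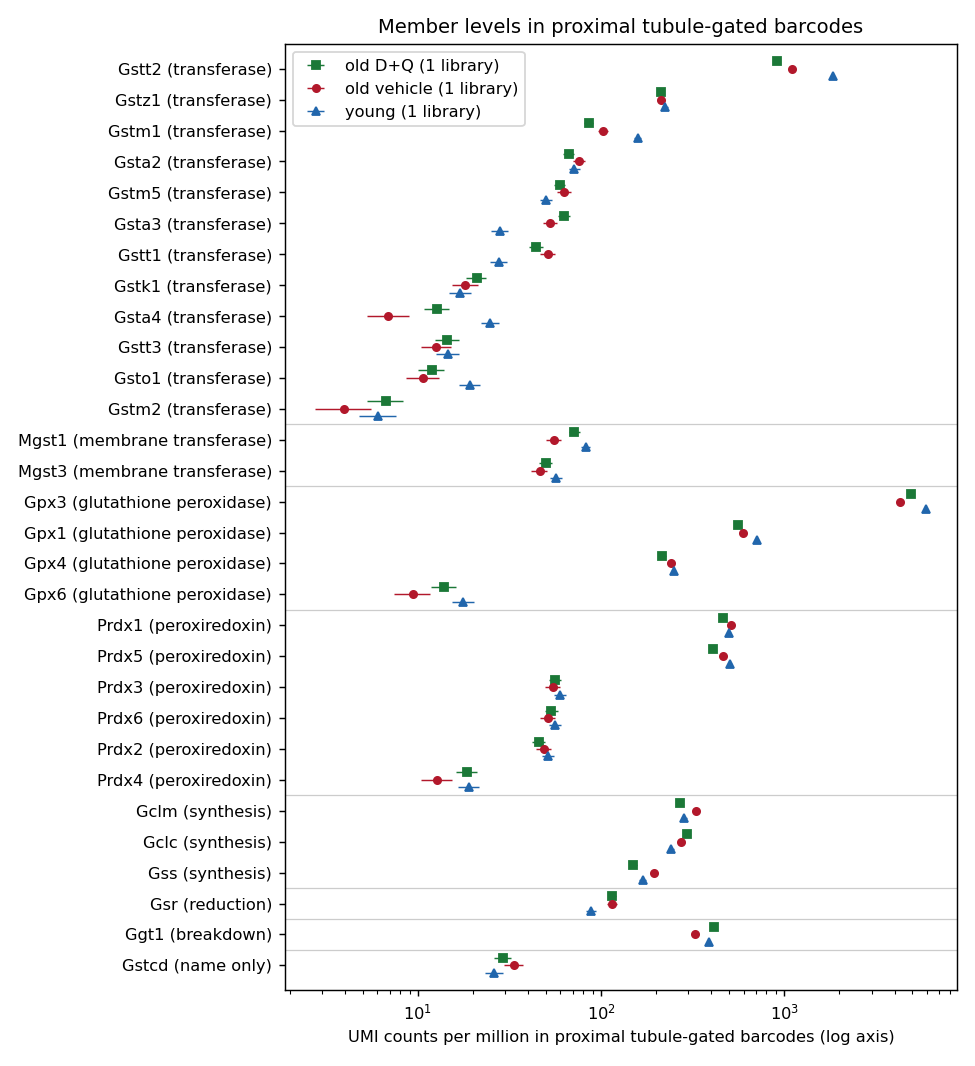
CPM (log axis) of the 30 measured members in proximal tubule-gated barcodes, grouped by role, with 1 point for each library and exact 95% Poisson intervals. Gpx3 lies above all others in each library, and the old vehicle and young intervals of Gsta4, Gsta3, Gstt1 and Gstt2 do not overlap.

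Old vehicle against young barcodes of the proximal tubule gate showed a split among the transferases. Gsta3 and Gstt1 were the 2 members at least 1.5-fold higher in old vehicle, of 30 measured, beside 4.29% of the 11175 genes measured there. Gsta4, Gpx6, Gsto1, Gstt2, Gstm1 and Gstm2 were at least 1.5-fold lower, 6 of 30, beside 3.57% of all genes. The calls of Gsta4, Gsto1, Gstm1 and Gstm2 depend on how RNA of urothelial barcodes is treated, as given below, and those of Gsta3, Gstt1, Gpx6 and Gstt2 do not. The median log2 ratio was −0.13 over the 30 members and 0.06 over all genes. Ratios carry exact conditional binomial intervals for counting error only, and a 1.5-fold ratio is 0.585 on the log2 scale.

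Gsta3, an alpha class transferase, had 62.7 CPM (58.3 to 67.3) in D+Q, 52.7 CPM (47.9 to 57.8) in old vehicle and 28.0 CPM (25.1 to 31.1) in young barcodes. Both old libraries lay above the young one without overlap of the intervals, and the log2 ratio of old vehicle over young was 0.91 (0.71 to 1.12). Gstt1, a theta class transferase known for acting on small halogenated compounds, had 44.1 CPM (40.4 to 47.9) in D+Q, 51.2 CPM (46.5 to 56.2) in old vehicle and 27.6 CPM (24.8 to 30.7) in young barcodes. Both old libraries again lay above the young one, with an old vehicle over young ratio of 0.89 (0.68 to 1.10). The order of the old libraries differed, with Gsta3 highest in D+Q and Gstt1 highest in old vehicle. Gstt2, its neighbour on chromosome 10, went the other way, with a log2 ratio of −0.74 (−0.78 to −0.71) and no overlap between the young library and either old one. The third measured theta gene, Gstt3, had 14.5 CPM in D+Q, 12.6 CPM in old vehicle and 14.6 CPM in young barcodes, with intervals that overlapped.

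Gsta4, the alpha class transferase known for conjugating the lipid aldehyde hydroxynonenal, had the lowest old vehicle over young ratio of the measured members. It stood at 12.7 CPM (10.8 to 14.8) in D+Q, 6.89 CPM (5.25 to 8.89) in old vehicle and 24.8 CPM (22.1 to 27.7) in young barcodes, from 156, 59 and 308 counts. The 3 libraries were apart beyond counting error, with D+Q between the others, and the log2 ratio of old vehicle over young was −1.84 (−2.27 to −1.44). Gsto1, an omega class enzyme that reduces dehydroascorbate, had 11.9 CPM in D+Q, 10.6 CPM in old vehicle and 19.1 CPM in young barcodes, a log2 ratio of old vehicle over young of −0.85 (−1.21 to −0.49). Here the old libraries overlapped and both lay below the young one. Gstm1, the most abundant mu class transferase here, had 85.4 CPM in D+Q, 102 CPM in old vehicle and 158 CPM in young barcodes, with a ratio of −0.63 (−0.74 to −0.51). Gstm2 had a ratio of −0.60 (−1.23 to −0.0005) on 34 old vehicle and 75 young counts, and its ratio ran from −0.95 to −0.02 over 14 alternative settings, past 1.5-fold in 9 of them. Gstm5, the mu class gene next to Gstm1 in level, had 59.3 CPM in D+Q, 62.7 CPM in old vehicle and an interval of 46.2 to 54.1 CPM in young barcodes, and its ratio of 0.33 (0.16 to 0.49) did not reach 1.5-fold. The membrane-bound Mgst1 had 71.4 CPM in D+Q, 55.1 CPM in old vehicle and 82.2 CPM in young barcodes, and at −0.58 (−0.74 to −0.42) it was just inside the threshold.

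Among the peroxidases, Gpx6, a relative of Gpx3 known from the olfactory system, was lower in old vehicle. It had 13.8 CPM (11.8 to 16.1) in D+Q, 9.34 CPM (7.41 to 11.6) in old vehicle and 17.6 CPM (15.4 to 20.1) in young barcodes, a log2 ratio of old vehicle over young of −0.91 (−1.30 to −0.54). The old vehicle library was lowest, and the intervals of the D+Q and young libraries overlapped. Gpx6 was higher in thick ascending limb barcodes, as given below. Markers of that class summed to 1091 CPM in D+Q, 945 CPM in old vehicle and 967 CPM in young proximal tubule-gated barcodes. The part of that class's RNA in these Gpx6 values was not tested. Gpx3 had a ratio of −0.48 (−0.50 to −0.46) and Gpx1 one of −0.25 (−0.30 to −0.20), both lower in old vehicle beyond counting error but by less than 1.5-fold. Gpx4, which reduces lipid hydroperoxides in membranes, had 216, 240 and 249 CPM and a ratio of −0.05 (−0.13 to 0.03). The 6 measured peroxiredoxins ranged from −0.57 for Prdx4, the endoplasmic reticulum form, to 0.04 for Prdx1, and none reached 1.5-fold. Prdx2 and Gpx1 are also abundant in red blood cells, and the erythroid genes were highest in the old vehicle library, where Prdx2 had 48.7 CPM against 51.3 CPM in the young library. The part of red cell RNA in these values was not tested.

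The synthesis and recycling enzymes were all somewhat higher in old vehicle than in young proximal tubule-gated barcodes, without reaching 1.5-fold. Gclc, the catalytic subunit of the first step, had 293 CPM in D+Q, 274 CPM in old vehicle and 242 CPM in young, and its modifier Gclm had 271, 328 and 284 CPM. Gss, which adds glycine in the second step, had 149, 196 and 169 CPM, and Gsr, the reductase, had 115, 114 and 88.0 CPM. Their old vehicle over young log2 ratios were 0.18 (0.10 to 0.26), 0.21 (0.14 to 0.28), 0.21 (0.12 to 0.31) and 0.37 (0.25 to 0.50), in that order, so each interval excludes 0. S3-gated barcodes, in which the 3 synthesis enzymes were higher, were a larger share of the old vehicle gate. Within the S3 and S1 segments the intervals of Gclc and Gss included 0, as given with the segments below. Ggt1, the brush border enzyme that starts glutathione breakdown, lay on the other side, with 416 CPM in D+Q, 327 CPM in old vehicle and 388 CPM in young and a ratio of −0.25 (−0.31 to −0.18). Gstz1, a zeta class enzyme of tyrosine breakdown, had 212, 212 and 224 CPM, with a ratio of −0.08 (−0.16 to 0.01) that does not differ from 0 beyond counting error.

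D+Q against old vehicle gave fewer members past 1.5-fold. This comparison shares the old vehicle library with the one above, so the ratios of both are tied through that library's values. In the proximal tubule gate, Gsta4 and Gstm2 were higher in D+Q, 2 of 30, beside 1.82% of all genes, and 0 of 30 members were at least 1.5-fold lower, beside 2.32% of all genes. The median log2 ratio was 0.03 over the members and −0.05 over all genes. Both calls depend on the treatment of urothelial RNA given below. Gsta4 had a ratio of D+Q over old vehicle of 0.88 (0.44 to 1.34), and Gstm2 one of 0.74 (0.15 to 1.37). Gpx6 and Prdx4 came next at 0.56 (0.17 to 0.97) and 0.53 (0.20 to 0.88). Mgst1 had a ratio of 0.37 (0.21 to 0.54), Ggt1 one of 0.35 (0.28 to 0.41) and Gpx3 one of 0.21 (0.19 to 0.23). The intervals of these 7 members lie above 0, and 5 of the 7 did not reach 1.5-fold. Gpx6 lies at the threshold, under it in 9 of 14 alternative settings with ratios of 0.38 to 0.86.

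Other members had lower values in D+Q than in old vehicle. Gss had the lowest ratio, −0.39 (−0.49 to −0.30), followed by Gclm at −0.28 (−0.35 to −0.20), Gstt2 at −0.26 (−0.30 to −0.22) and Gstm1 at −0.26 (−0.39 to −0.13). Gstt2 and Gstm1 were thus furthest from the young level in the D+Q library, and Gss and Gclm had their highest level in the old vehicle library. Gsta3, at 0.25 (0.08 to 0.42), was also furthest from the young level in D+Q. Gstt1 was at −0.22 (−0.40 to −0.03), still above the young library. Gclc, at 0.10 (0.02 to 0.17), and Gsr, at 0.01 (−0.11 to 0.13), stayed near the old vehicle level.

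**Figure D2:**
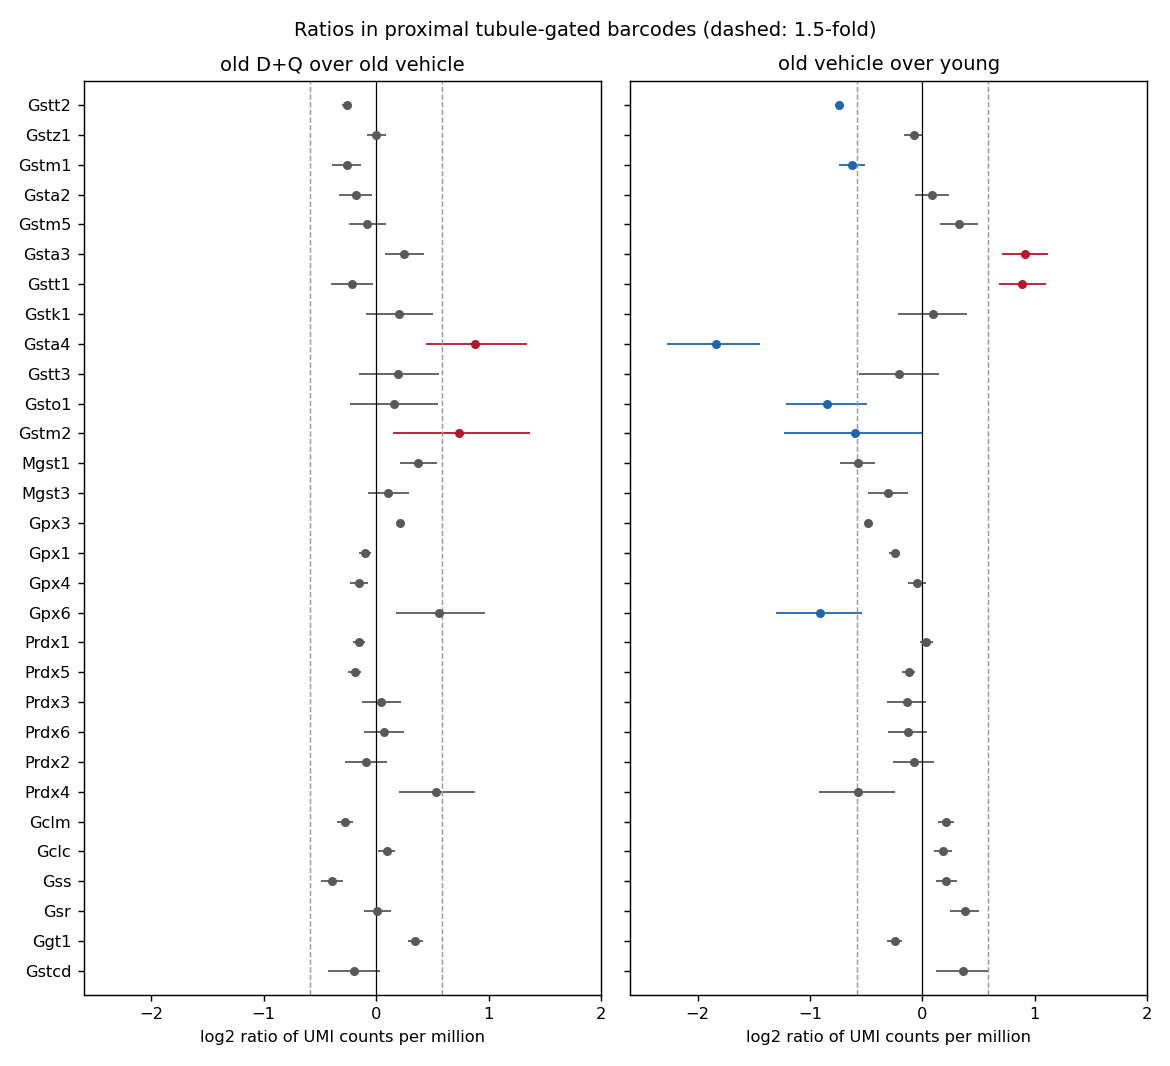
Log2 ratios of CPM for the 30 measured members in proximal tubule-gated barcodes, D+Q over old vehicle on the left and old vehicle over young on the right, with exact conditional binomial 95% intervals. Dashed lines mark 1.5-fold, red points lie at least 1.5-fold higher and blue points at least 1.5-fold lower, and Gsta4 is at 0.88 on the left and −1.84 on the right.

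Over all kept barcodes, where fewer cells of a type and less RNA per cell cannot be told apart, 32 members were measured. For old vehicle against young, Gsta3 and Gstt1 were again the 2 members at least 1.5-fold higher, beside 3.48% of the 12004 genes measured, and 8 were at least 1.5-fold lower, beside 3.32%. The 8 were Gsta4 at −2.49 (−2.76 to −2.24), Gsto1 at −1.21, Gstm1 at −1.20, Gstm2 at −0.89, Gpx6 at −0.87, Mgst1 at −0.87, Gpx8 at −0.81 and Gstt2 at −0.68. Gpx8, a peroxidase of the endoplasmic reticulum membrane, had 7.38 CPM in D+Q, 6.23 CPM in old vehicle and 11.0 CPM in young barcodes and was not measured in the proximal tubule gate. For D+Q against old vehicle, Gsta4 at 1.04 (0.76 to 1.34), Gstm2 at 0.69 (0.34 to 1.05) and Gsto1 at 0.64 (0.37 to 0.91) were at least 1.5-fold higher, beside 1.46% of all genes, and 0 of 32 were at least 1.5-fold lower, beside 1.76%.

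Several of these transferases were concentrated in urothelial-gated barcodes, of which there were 39 in D+Q, 9 in old vehicle and 102 in young, or 0.494%, 0.151% and 1.24% of each library. Gsta4 had 580 CPM in the D+Q, 524 CPM in the old vehicle and 1316 CPM in the young urothelial gate, and that gate held 20.8%, 9.63% and 44.8% of all Gsta4 counts of its library. Gstm1 had 2262, 1530 and 4529 CPM there, with 14.4%, 2.50% and 33.7% of its counts. Mgst1 had 754, 282 and 1187 CPM, with 6.62%, 0.787% and 18.9% of its counts. Gsto1 had 540, 282 and 356 CPM, with 21.0%, 4.24% and 24.1% of its counts. Gstm2 had 280, 242 and 109 CPM, with 18.4%, 6.38% and 16.2% of its counts. The old vehicle values rest on 13, 38, 7, 7 and 6 counts in 9 barcodes. Gsta3 was also higher in the urothelial than in the proximal tubule gate, at 174 CPM in D+Q and 79.3 CPM in young barcodes, with 0 counts in old vehicle, and the urothelial gate held 2.11%, 0% and 5.41% of its counts. For Gstt1 that gate held 1.17%, 0.256% and 0.679% of the counts.

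**Figure D3:**
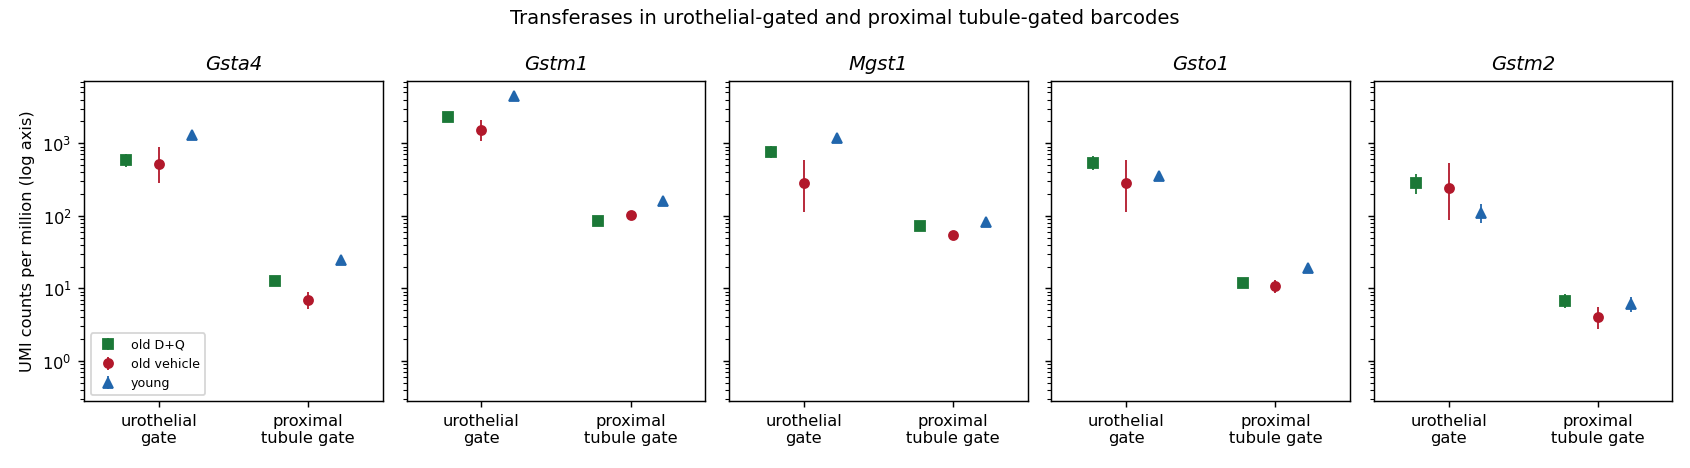
CPM (log axis) of Gsta4, Gstm1, Mgst1, Gsto1 and Gstm2 in urothelial-gated and proximal tubule-gated barcodes, 1 point for each library with exact 95% Poisson intervals. In each library all 5 genes are higher in the urothelial gate, Gsta4 by 580 against 12.7 in D+Q, 524 against 6.89 in old vehicle and 1316 against 24.8 in young barcodes.

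Without the urothelial gate and any other barcode with 2 or more urothelial markers, the all-barcode levels of these genes lay closer together. Gsta4 was then at 15.1 CPM in D+Q, 8.90 CPM in old vehicle and 26.5 CPM in young barcodes, with ratios of 0.76 (0.46 to 1.08) for D+Q over old vehicle and −1.57 (−1.87 to −1.29) for old vehicle over young. Gstm1 was at 92.5, 107 and 159 CPM, and its old vehicle over young ratio of −0.58 no longer reached 1.5-fold. The same held for Mgst1, at 76.9, 62.5 and 91.3 CPM and a ratio of −0.55. Gsto1 kept a ratio of −0.81 for old vehicle over young, while its D+Q over old vehicle ratio was 0.19 and no longer past 1.5-fold. In all, 2 members stayed at least 1.5-fold higher and 6 lower in old vehicle than in young, beside 3.8% and 2.75% of all genes, and Gsta4 was the 1 member higher in D+Q, beside 1.17%, with 0 of 32 lower, beside 1.68%.

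Within the proximal tubule gate, leaving out every barcode with a urothelial marker UMI, which does not remove free urothelial RNA from the other barcodes, left Gsta4 at 12.3 CPM in D+Q, 6.84 CPM in old vehicle and 22.7 CPM in young barcodes. Its ratios were 0.84 (0.39 to 1.31) for D+Q over old vehicle and −1.72 (−2.17 to −1.31) for old vehicle over young. The old vehicle over young calls left were Gsta3 and Gstt1, higher, 2 of 29 beside 4.78% of all genes, and Gsta4, Gpx6, Gsto1 and Gstt2, lower, 4 of 29 beside 3.44%. The D+Q over old vehicle call left was Gsta4, higher, 1 of 29 beside 1.68%, with 0 of 29 lower beside 2.45%.

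Urothelial RNA was also taken off in the proximal tubule gate, by subtracting for each gene the gate's urothelial marker counts times that gene's count per marker count in the urothelial gate of the same library. For Gsta4 this took off 25.9% of the proximal tubule counts in D+Q, 14.0% in old vehicle and 66.4% in young, and left 9.45, 5.94 and 8.43 CPM. Its old vehicle over young ratio was then −0.50, no longer past 1.5-fold, and its D+Q over old vehicle ratio was 0.67. The old vehicle urothelial gate has 9 barcodes, and with the ratios of the 3 urothelial gates pooled these values were −0.65 and 0.47, so each of the Gsta4 calls holds under 1 of the 2 versions and not under the other. Gstm1 lost 15.0%, 2.75% and 35.8% of its counts, which left 73.0 CPM in D+Q, 99.8 CPM in old vehicle and 103 CPM in young and an old vehicle over young ratio of −0.04. Its D+Q level was then the lowest by more than before, with a D+Q over old vehicle ratio of −0.45. Gsto1 was left at 8.86, 10.1 and 14.9 CPM, with an old vehicle over young ratio of −0.55, and Gstm2 at 5.11, 3.53 and 4.73 CPM, under the expression floor.

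Gsta3 and Gstt1, higher in old vehicle than in young, and Gpx6 and Gstt2, lower, kept their calls, with ratios of 0.95, 0.88, −0.92 and −0.76 in that order. These were 2 of 29 members higher, beside 4.56% of all genes, and 2 of 29 lower, beside 3.33%. For D+Q over old vehicle, Gsta4 was the 1 of 29 higher, beside 1.64%, and 0 of 29 were lower, beside 2.34%. With the pooled ratios, 2 of 29 were higher and 3 of 29 lower in old vehicle than in young, beside 4.62% and 3.3% of all genes, and 0 of 29 were higher or lower in D+Q than in old vehicle, beside 1.63% and 2.43%. Both versions were added after seeing the data and treat every urothelial marker count in the proximal tubule gate as carried over, which was not tested. The urothelial gate itself held proximal tubule markers at 18.66% of the proximal tubule gate's level in D+Q, 28.21% in old vehicle and 14.75% in young. That RNA was not taken out of the counts per urothelial marker count.

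Late (S3) and early (S1) proximal tubule barcodes, gated on at least 2 transporters or enzymes of each segment, showed a segment order that recurred in all 3 libraries. Of 29 members measured in both, 9 (31.0%) were higher in S3 with intervals excluding 0 in every library, beside 11.2% of 10538 genes, and 5 (17.2%) were higher in S1, beside 8.51%. The synthesis enzymes led the S3 side. Gclc had 449 CPM in S3 and 173 CPM in S1 barcodes of D+Q, 427 and 141 CPM in old vehicle, and 445 and 128 CPM in young, with S3 over S1 log2 ratios of 1.37, 1.60 and 1.79. The D+Q and young intervals (1.26 to 1.49, and 1.67 to 1.92) did not overlap. Gss had S3 over S1 ratios of 1.27, 1.18 and 1.26 and Gclm of 0.92, 1.02 and 1.02, so both differed between segments by about the same amount in each library. Gstz1, at 0.59, 0.70 and 0.55, Gstm1, at 0.51, 0.92 and 0.34, Gstt2, at 0.68, 0.33 and 0.70, Ggt1, at 0.42, 0.40 and 0.42, Gpx4, at 0.21, 0.30 and 0.30, and Prdx5, at 0.10, 0.13 and 0.13, completed the S3 side.

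On the S1 side, Gsta2, an alpha class transferase, had the steepest difference, with 32.7 CPM in S3 and 107 CPM in S1 barcodes of D+Q, 40.2 and 124 CPM in old vehicle, and 36.2 and 109 CPM in young. Its ratios were −1.71, −1.63 and −1.59. Gpx3 was likewise lower in S3, with 3567 CPM in D+Q, 3024 CPM in old vehicle and 4105 CPM in young barcodes, against 6308, 6016 and 7810 CPM in S1. Gsto1, Gstt1 and Mgst3, a membrane-bound transferase, were the other members of this side. The makers of glutathione and its secreted peroxidase thus had their higher UMI shares at opposite ends of the proximal tubule in each library.

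**Figure D4:**
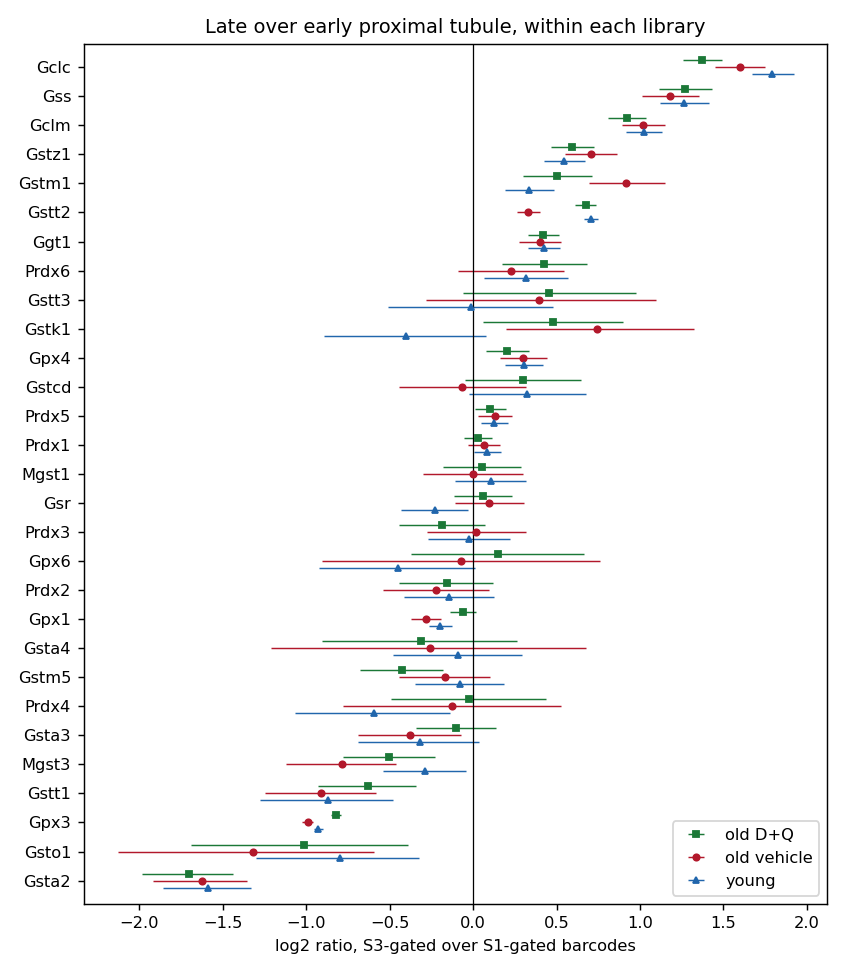
Log2 ratio of S3-gated over S1-gated barcodes for the 29 members measured in both, 1 point for each library with exact conditional binomial 95% intervals. Gclc, Gss and Gclm lie to the right of 0 and Gsta2, Gsto1, Gpx3 and Gstt1 to the left in all 3 libraries.

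The share of barcodes gated to each segment differed between the libraries, with 1753 S3 and 2171 S1 barcodes in D+Q, 1733 and 1609 in old vehicle, and 1562 and 2317 in young. Values were therefore set side by side within a segment. The S3 markers summed over the proximal tubule gate also differed, at 2792, 3228 and 2160 CPM in that order. Segment share and marker level cannot be told apart by these gates. Gss had 225 CPM in D+Q, 272 CPM in old vehicle and 256 CPM in young S3 barcodes, and 93.2, 120 and 106 CPM in S1 barcodes, with old vehicle over young ratios of 0.09 (−0.04 to 0.21) and 0.17 (−0.02 to 0.36) that include 0. Gclc had a ratio of −0.06 (−0.16 to 0.04) in S3 and 0.14 (−0.03 to 0.31) in S1, so for these 2 synthesis enzymes a difference between old vehicle and young was not detectable within a segment at this depth. Gclm, at 0.14 (0.04 to 0.24) in S3 and 0.15 (0.01 to 0.28) in S1, and Gsr, at 0.56 (0.35 to 0.77) and 0.23 (0.04 to 0.43), were higher in old vehicle in both. Gpx3 was lowest in old vehicle and highest in young in both segments. For old vehicle against young, Gsta3 and Gstt1 were at least 1.5-fold higher in S1, 2 of 30 beside 6.69% of all genes, and both again in S3 together with Gstk1, a mitochondrial and peroxisomal transferase, 3 of 29 beside 7.1%. In S1, Gstm1, Gsta4, Gstt3, Gpx6 and Prdx4 were at least 1.5-fold lower, 5 of 30 beside 5.7%, and in S3 Gsta4, Gstt2, Gpx6 and Gsto1, 4 of 29 beside 5.86%. Gstt2 had 1143 CPM in D+Q, 1218 CPM in old vehicle and 2362 CPM in young S3 barcodes and 716, 968 and 1449 CPM in S1 barcodes, with an S3 ratio of old vehicle over young of −0.95 (−1.01 to −0.90). Whether the ratio differs between segments was not tested, and urothelial RNA was not taken off within segments. For D+Q against old vehicle, Gstm2, Gsta4 and Gpx6 were higher in S1, 3 of 30 beside 3.35%, with a Gstm2 interval that includes 0, and Gsta4 and Gpx6 in S3, 2 of 29 beside 3.66%. No measured member was at least 1.5-fold lower in S1, beside 5%, or in S3, beside 4.92%.

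Outside the proximal tubule, gates on 3 markers alone took in many barcodes rich in proximal tubule RNA. The thick ascending limb gate of 1359, 746 and 1398 barcodes held proximal tubule markers at 84.6%, 86.5% and 81.7% of the proximal tubule gate's level in D+Q, old vehicle and young, which goes against its name. A stricter gate, added after these values were seen, asked for more UMIs of a class's own markers than of proximal tubule markers. It left 314 D+Q, 128 old vehicle and 308 young thick ascending limb barcodes with 32.8%, 41.7% and 32.6% of that level, 193, 57 and 192 endothelial barcodes with 22.7%, 23.4% and 20.6%, and 61, 50 and 70 stromal barcodes with 10.6%, 10.7% and 12.3%. Levels of proximal tubule-rich members in these classes stand beside that remainder, and its part in them was not tested.

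Some members were nonetheless higher in these classes than in the proximal tubule gate of every library, with intervals excluding 0. Of the members measured in the class or in the proximal tubule gate, this held for 5 of 30 (16.7%) in the thick ascending limb, beside 7.73% of all such genes, for 1 of 31 (3.23%) in endothelial barcodes, beside 14.4%, and for 5 of 32 (15.6%) in stromal barcodes, beside 10.4%. A gene measured in the class alone entered through the gate where it was high, among members and all genes alike. These counts therefore describe the gates and are no test of the members. Gpx6 had 110 CPM in D+Q, 87.4 CPM in old vehicle and 124 CPM in young thick ascending limb barcodes, log2 ratios over the proximal tubule gate of 2.99 (2.58 to 3.39), 3.21 (2.49 to 3.91) and 2.80 (2.43 to 3.17). Its old vehicle over young ratio in the thick ascending limb gate was −0.50 (−1.23 to 0.18), under 1.5-fold and with an interval that includes 0. Mgst1 had 182, 144 and 205 CPM there and Mgst3 126, 103 and 109 CPM, so both membrane-bound transferases were also higher in that class. Prdx2, at 91.0, 94.9 and 88.0 CPM, and Prdx5, at 574, 577 and 649 CPM, completed the set. In endothelial barcodes this held for Ggta1, with 76.6, 48.2 and 81.3 CPM against 1.87, 1.98 and 2.17 CPM in the proximal tubule gate, where it was not measured. In stromal barcodes it held for Ggt5, a gamma-glutamyl transferase known for cleaving leukotriene C4, at 88.8, 27.7 and 96.5 CPM, for Gpx8 at 59.2, 102 and 59.0 CPM, and for Gstm2, Gstm1 and Gstt1. The stromal values rest on few counts, 15, 3 and 18 for Ggt5 and 10, 11 and 11 for Gpx8. Neither of these genes was measured in the proximal tubule gate, so both entered through the stromal gate. For Ggt5 the old vehicle over young ratio was −1.68 (−4.20 to −0.02), with an upper end close to 0. Its D+Q over old vehicle interval, −0.14 to 4.11, included 0. The order of Gpx8 between libraries is not resolved.

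Another 6 members ran the other way in all of the thick ascending limb, endothelial and stromal gates of every library, with levels below the proximal tubule gate. These were Gss, Gclm, Gstt2, Gpx3, Gstz1 and Ggt1, 6 of the 30 members measured in the proximal tubule gate (20%), beside 3.93% of all genes measured there. Gpx3 stayed abundant everywhere, at 4185 CPM in D+Q, 3517 CPM in old vehicle and 5327 CPM in young thick ascending limb barcodes and at 2806, 2634 and 3119 CPM in stromal barcodes. In thick ascending limb barcodes Gsta4 was at 41.1 CPM in D+Q, 11.4 CPM in old vehicle and 61.1 CPM in young, from 28, 3 and 43 counts, and Gsta3 at 42.6, 45.6 and 18.5 CPM. As in the proximal tubule gate, the young library had the highest value for Gsta4 and the lowest for Gsta3. The D+Q over young ratio of Gsta4 was −0.56 (−1.31 to 0.15), so these 2 libraries are not resolved for Gsta4 in this gate. Urothelial RNA was not taken off in the thick ascending limb gate. Distal convoluted tubule, collecting duct, intercalated, podocyte and leukocyte gates held under 50 barcodes in at least 1 library and were not compared.

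**Figure D5:**
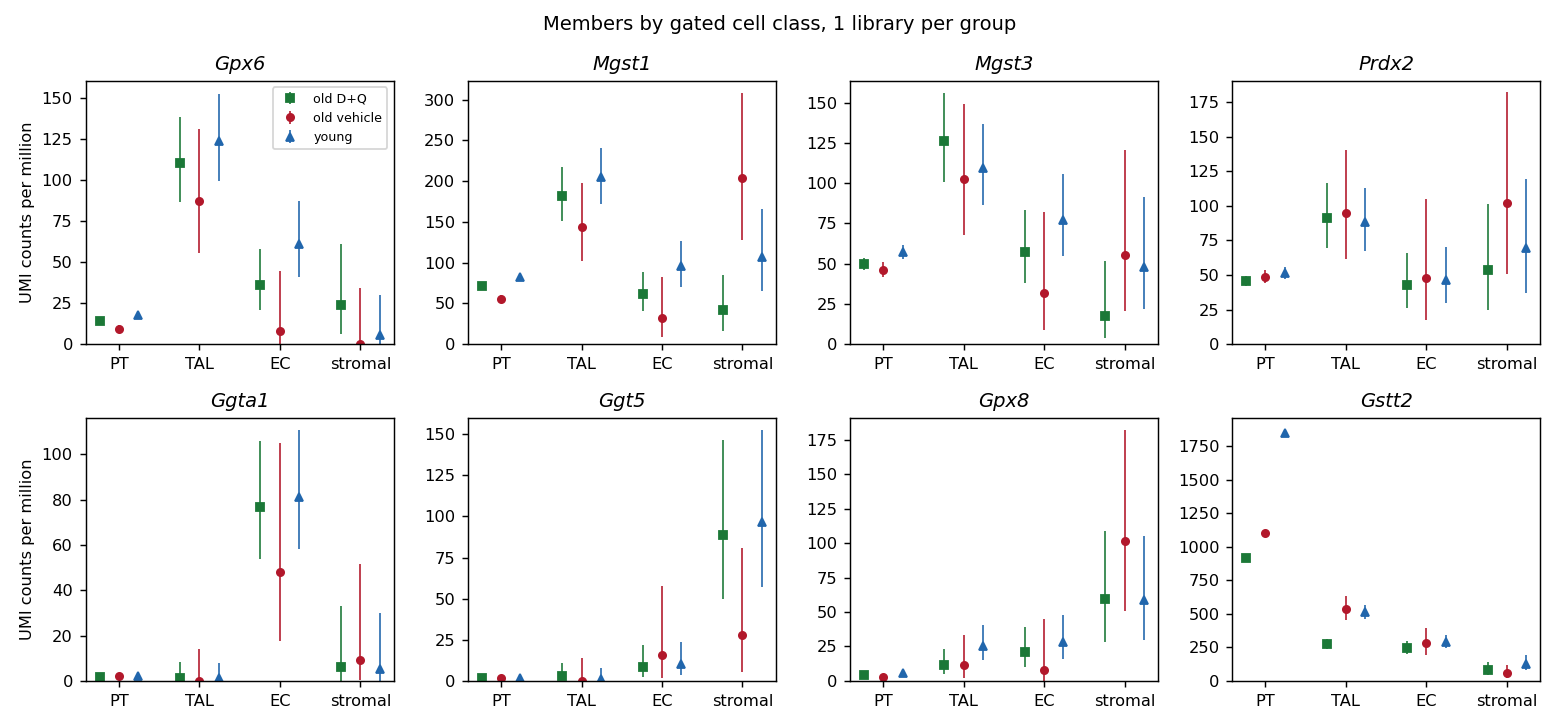
CPM of 8 members in the proximal tubule (PT), thick ascending limb (TAL), endothelial (EC) and stromal gates, the last 3 under the stricter gate, with 1 point for each library and exact 95% Poisson intervals. Gpx6, Mgst1, Mgst3 and Prdx2 lie higher in the thick ascending limb, Ggta1 in endothelial, Ggt5 and Gpx8 in stromal barcodes, and Gstt2 is highest in the proximal tubule gate.

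Genes that work with the members but lie outside their families were past 1.5-fold about as often as all genes. Of 47 such genes (thioredoxins and glutaredoxins, superoxide dismutases and catalase, the NRF2 axis, glutathione turnover, NADPH supply and transport), 44 were measured in the proximal tubule gate, with 1 higher and 3 lower in old vehicle than in young, beside 4.29% and 3.57% of all genes, and a median log2 ratio of 0.02, beside 0.06 over all genes. The higher one was Abcc4, an exporter of conjugates and cyclic nucleotides, with 76.0 CPM in D+Q, 80.8 CPM in old vehicle and 39.3 CPM in young. The lower ones were Txnip, an inhibitor of thioredoxin, with 66.7, 57.3 and 121 CPM, the dipeptidase Dpep1, which acts after Ggt1, with 36.9, 34.8 and 55.6 CPM, and Srxn1, which repairs over-oxidised peroxiredoxins, with 6.42, 4.32 and 6.84 CPM. The measured genes of the NRF2 axis, 5 of 6, had 0 past 1.5-fold in either comparison, with a median of 0.25 for old vehicle over young and −0.04 for D+Q over old vehicle, beside 0.06 and −0.05 over all genes. For D+Q against old vehicle, 0 of the 44 genes passed 1.5-fold in either direction, beside 1.82% of all genes higher and 2.32% lower. Over all barcodes 45 of the 47 were measured, with 1 higher and 2 lower in old vehicle than in young, beside 3.48% and 3.32% of all genes. For D+Q against old vehicle 1 was higher and 0 lower, beside 1.46% and 1.76%. Abcc3, an exporter of conjugates close to the floor of 5 CPM, had 4.10 CPM in D+Q, 1.67 CPM in old vehicle and 9.47 CPM in young there. Its ratios were 1.28 (0.62 to 2.03) for D+Q over old vehicle and −2.49 (−3.19 to −1.88) for old vehicle over young. Abcc3 passed the floor only through the young library, where it is high, so its old vehicle over young call is no independent result. Its D+Q over old vehicle ratio rests on values under 5 CPM in both libraries. The part of urothelial barcodes in these Abcc3 values was not tested.

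The remaining members were scarce. Of the 51, 19 were not measured over all barcodes and 21 in the proximal tubule gate, 8 had under 30 counts over the 3 libraries, and Gpx5, known from the epididymis, had 0 counts in each. The pi class transferases Gstp1 and Gstp2, abundant in many other tissues, had 1.22 and 1.54 CPM in D+Q, 1.17 and 1.17 CPM in old vehicle, and 0.804 and 2.01 CPM in young proximal tubule-gated barcodes. Gsta1 had 1, 3 and 1 counts and Gpx2, an intestinal peroxidase, 0, 0 and 1 counts. For Gstp1 and Gsta1 the intervals of both comparisons included 0, in the gate and over all barcodes.

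Of the 19 members not measured over all barcodes, 5 had an old vehicle over young interval that excluded 0, and 1 a D+Q over old vehicle interval. No share of all scarce genes with such intervals is given here, so these counts are not a result about the families. Gstm4, a mu class transferase, had 33 counts in D+Q, 30 in old vehicle and 97 in young, an old vehicle over young ratio of −0.92 (−1.57 to −0.32). Gsto2, the second omega class gene, had 47, 21 and 82 counts and a ratio of −1.19 (−1.97 to −0.49). The membrane-bound Mgst2 had 7, 3 and 41 counts, of which the urothelial gate held 1, 0 and 17, and a ratio of −2.86 (−5.34 to −1.36). Gstp2 had 23, 15 and 48 counts and a ratio of −0.90 (−1.86 to −0.05). Ggt5 was lowest in old vehicle, with 107, 49 and 119 counts, a D+Q over old vehicle ratio of 0.53 (0.04 to 1.06) and an old vehicle over young ratio of −0.51 (−1.03 to −0.02). In the proximal tubule gate, 2 of the 21 members not measured had an old vehicle over young interval excluding 0, Gstm4 at −0.97 (−1.91 to −0.14) and Gpx8 at −1.07 (−1.83 to −0.39), and 1 a D+Q over old vehicle interval, Gpx8 at 0.78 (0.06 to 1.55). The counts in this gate likewise have no share of all scarce genes beside them.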

How the data were processed

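Kidney tissue was digested with collagenase II and made into 3′ single-cell libraries (MobiCube), per the labels' protocols. The authors deposited raw UMI counts per gene and barcode, not normalised. The submitters' processing notes name GRCm39 and mm10 without roles, no source used here names the aligner, and no coordinates of the counted genes are printed. The 51 members and every gene list were chosen with earlier results of these data known.

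From the counts, 149 D+Q, 82 old vehicle and 385 young barcodes above 50% mitochondrial counts were dropped, and no doublet caller was run. Classes were gated on 3 markers, a barcode outside the proximal tubule going to the class with most distinct markers, and S1 and S3 on 2. Counts were summed per library and gate and scaled to CPM. For log2 ratios a prior of 0.5 counts was added to each side, scaled by that side's total over the mean of both totals. A gene was past the size limit at 1.5-fold. Intervals are exact 95% Poisson, or conditional binomial for ratios, and cover counting error only, since 1 library a group may differ from another for any reason. Median UMIs per barcode were 2299 in D+Q, 1883 in old vehicle and 2391 in young. Members named in full were those past 1.5-fold in either comparison and the 12 with the highest mean level. Nnt, listed under 2 gene IDs, was left out of the list of related genes. TMM factors came from edgeR 4.0.16 (R 4.3.3) and all else from Python 3.11.15 with pandas 2.3.3, numpy 2.4.6, scipy 1.17.1 and, for drawing, matplotlib 3.10.9, and the ratio script was checked on simulated data. Alternatives changed the scaling, expression floor, mitochondrial limit, gate, pooling and depth filter, and took off urothelial RNA. Protein sequences were not used here.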

Additional observations from a re-analysis of the deposited data

How the results depend on the processing

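The D+Q over old vehicle counts rest on few members. In proximal tubule-gated barcodes 2 members were at least 1.5-fold higher, and this count was 4 under TMM scaling, 1 with the gate set on barcodes thinned to 1000 UMIs and 1 without barcodes with a urothelial marker, an alternative chosen after seeing the data. With urothelial RNA taken off, also chosen after seeing the data, the 6 members lower in old vehicle than in young became 2 with the ratios of the same library and 3 with the pooled ratios, and the 2 members higher in D+Q than in old vehicle became 1 and 0. Over all kept barcodes the 3 higher members became 1 without urothelial-marked barcodes, also chosen after seeing the data, and Gstm1, not past 1.5-fold, had −0.20 in place of 0.05. With no expression floor more members entered. Old vehicle over young then had 6 higher and 15 lower members over all barcodes and 5 higher and 14 lower in the proximal tubule gate, while D+Q over old vehicle had 3 lower members over all barcodes and 4 higher and 4 lower in the gate. The members added lie under the floor, some with only a few counts. No share over all genes is given for this setting, so these counts are not a result about the families. The other 85 recomputed counts stayed within 1.5 times the counts reported, and no value past 1.5-fold changed sign. Gsta3 and Gstt1 stayed at least 1.5-fold higher, and Gpx6 and Gstt2 lower, in old vehicle than in young under all 14 alternatives in the proximal tubule gate, Gsta4 in 13 (−2.02 to −0.50), Gsto1 in 12 (−0.96 to −0.42) and Gstm1 in 10 (−0.86 to −0.04). For D+Q over old vehicle, Gsta4 stayed past 1.5-fold in 13 of 14 there (0.47 to 1.04) and Gstm2 in 11 of 14 (0.49 to 1.04). Over all barcodes, Gstm2 did so in 7 of 9 and Gsto1 in 6 of 9, while Gpx6, reported at 0.58, stayed under 1.5-fold in 4 of 9 (0.53 to 0.65). Gstt2, old vehicle over young, was at −0.58 over all barcodes as a mean over barcodes. The causes of the moved counts were not tested, beyond the larger number of genes admitted without a floor. No paired analysis was possible because each group has 1 library. Members under 30 counts over the 3 libraries were not called at this depth.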
